A study of Arabidopsis thaliana with 36 samples.

Results

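A set of 88 genes of Arabidopsis thaliana peaked by day in leaves of 21 days after sowing (DAS) and by night in leaves of 35 DAS. They were chosen by the group means of the same libraries described here, from 33279 loci. A gene entered when its highest 21 DAS mean was at ZT5 or ZT9 and its highest 35 DAS mean at ZT17 or ZT21 (ZT, hours after lights on). Its highest mean had to be at least 2 times its lowest at each age, and its overall mean at least 2 FPKM (a level in fragments, scaled to transcript length and library size). Genes whose description held any of 11 words for large families, such as WRKY or histone, were left out, which removed 7 of 95. Peak times, folds within an age and differences between day and night therefore chose the members, and they are given below as descriptions without a test.

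The study sampled the third and the fourth rosette leaves of Col-0 plants kept at 22 °C in days of 16 h light and nights of 8 h, with light of 100 µmol m−2 s−1. Leaves of both ages were taken at ZT1, ZT5, ZT9, ZT13, ZT17 and ZT21, so the last 2 times were dark. Each of the 12 groups has 3 libraries of polyadenylated RNA, 36 in all. The title of the series places daily rhythms in aged plants nearer the night pattern, and the comparison of peak times between the ages bears on that question.

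Daily expression in plants is set by the circadian clock together with light, temperature and sugar. The evening element is a promoter sequence bound by morning MYB factors of the clock such as CCA1, and the G-box is bound by bHLH and bZIP factors, among them factors of light and abscisic acid signalling. In ageing leaves, proteins, nucleic acids and lipids are taken apart and their nitrogen is exported, under the control of NAC transcription factors such as NAP.

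Promoter windows of 4 members are shown because they hold the clock and G-box letters at the positions named below, and that of the allantoinase gene ALN because it holds neither. Each is the 250 bases before the gene start in RefSeq's TAIR10.1 annotation, 5′ to 3′ on the gene's strand. Capitals mark the evening element (AAATATCT), a CCA1-binding site (AAAAATCT), the G-box (CACGTG) and the ABRE, the abscisic acid response element (ACGTGGC or ACGTGTC), on either strand.
BHLH150, chr3:1726901-1727150, plus strand: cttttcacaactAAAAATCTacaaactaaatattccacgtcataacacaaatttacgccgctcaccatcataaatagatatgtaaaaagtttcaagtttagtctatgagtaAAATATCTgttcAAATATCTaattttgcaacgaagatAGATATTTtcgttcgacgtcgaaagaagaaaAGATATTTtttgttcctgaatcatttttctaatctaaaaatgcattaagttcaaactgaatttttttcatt
XBAT31, chr2:12378022-12378271, plus strand: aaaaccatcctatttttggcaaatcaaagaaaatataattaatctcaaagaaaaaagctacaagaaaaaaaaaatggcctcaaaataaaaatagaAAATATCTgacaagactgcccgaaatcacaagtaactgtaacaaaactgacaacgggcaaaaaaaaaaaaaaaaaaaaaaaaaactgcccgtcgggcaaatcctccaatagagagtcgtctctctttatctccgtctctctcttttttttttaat
CMT2, chr4:10414178-10414427, plus strand: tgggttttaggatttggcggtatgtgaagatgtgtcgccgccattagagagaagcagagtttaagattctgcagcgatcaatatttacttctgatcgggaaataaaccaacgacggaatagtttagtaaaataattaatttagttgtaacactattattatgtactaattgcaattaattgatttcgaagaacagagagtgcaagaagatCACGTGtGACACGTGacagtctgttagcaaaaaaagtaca
NAC029, chr1:26121830-26122079, plus strand: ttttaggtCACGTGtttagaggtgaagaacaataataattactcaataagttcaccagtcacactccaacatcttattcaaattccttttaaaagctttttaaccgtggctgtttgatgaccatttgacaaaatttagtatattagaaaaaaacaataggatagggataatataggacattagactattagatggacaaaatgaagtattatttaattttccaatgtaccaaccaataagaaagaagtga
ALN, chr4:2525353-2525602, minus strand: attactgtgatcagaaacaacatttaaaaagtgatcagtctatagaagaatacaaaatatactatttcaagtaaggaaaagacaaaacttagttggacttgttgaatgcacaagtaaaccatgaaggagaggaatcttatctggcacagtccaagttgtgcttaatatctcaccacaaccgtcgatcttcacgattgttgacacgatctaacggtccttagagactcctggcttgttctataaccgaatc

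Among 5272 genes with a 2-fold daily change at both ages and the same limit on the mean, 1054 peaked at ZT5 or ZT9 at 21 DAS. Of these, 878 kept a peak at ZT5 or ZT9 at 35 DAS, 88 peaked at ZT17 or ZT21, and another 88 at ZT1 or ZT13. The opposite move, from a night peak to a day peak, was made by 253 of 2054 genes with a night peak at 21 DAS, or 12.3%, against 8.35% for the move from day to night. Within the set, 52 members peaked at ZT9 and 36 at ZT5 at 21 DAS. At 35 DAS, 54 peaked at ZT21 and 34 at ZT17.

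The margins behind these peaks were often small. The highest day mean at 21 DAS was a median of 1.36 times the highest night mean, over the 86 members with a night level above 0. The highest night mean at 35 DAS was a median of 1.28 times the highest day mean (87 members). The first ratio was under 1.2 in 26 members and the second in 32. Both were 1.5 or more in 12 members. The lowest mean was at ZT1 in 54 members at 21 DAS and in 50 at 35 DAS, 42 of them at both ages. Among the 5272 genes, the share with the lowest mean at ZT1 was 35.9% at 21 DAS and 29.4% at 35 DAS, against 61.4% and 56.8% of the members. The 5272 include genes that peaked at ZT1, which the rule keeps out of the set.

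**Figure D1:**
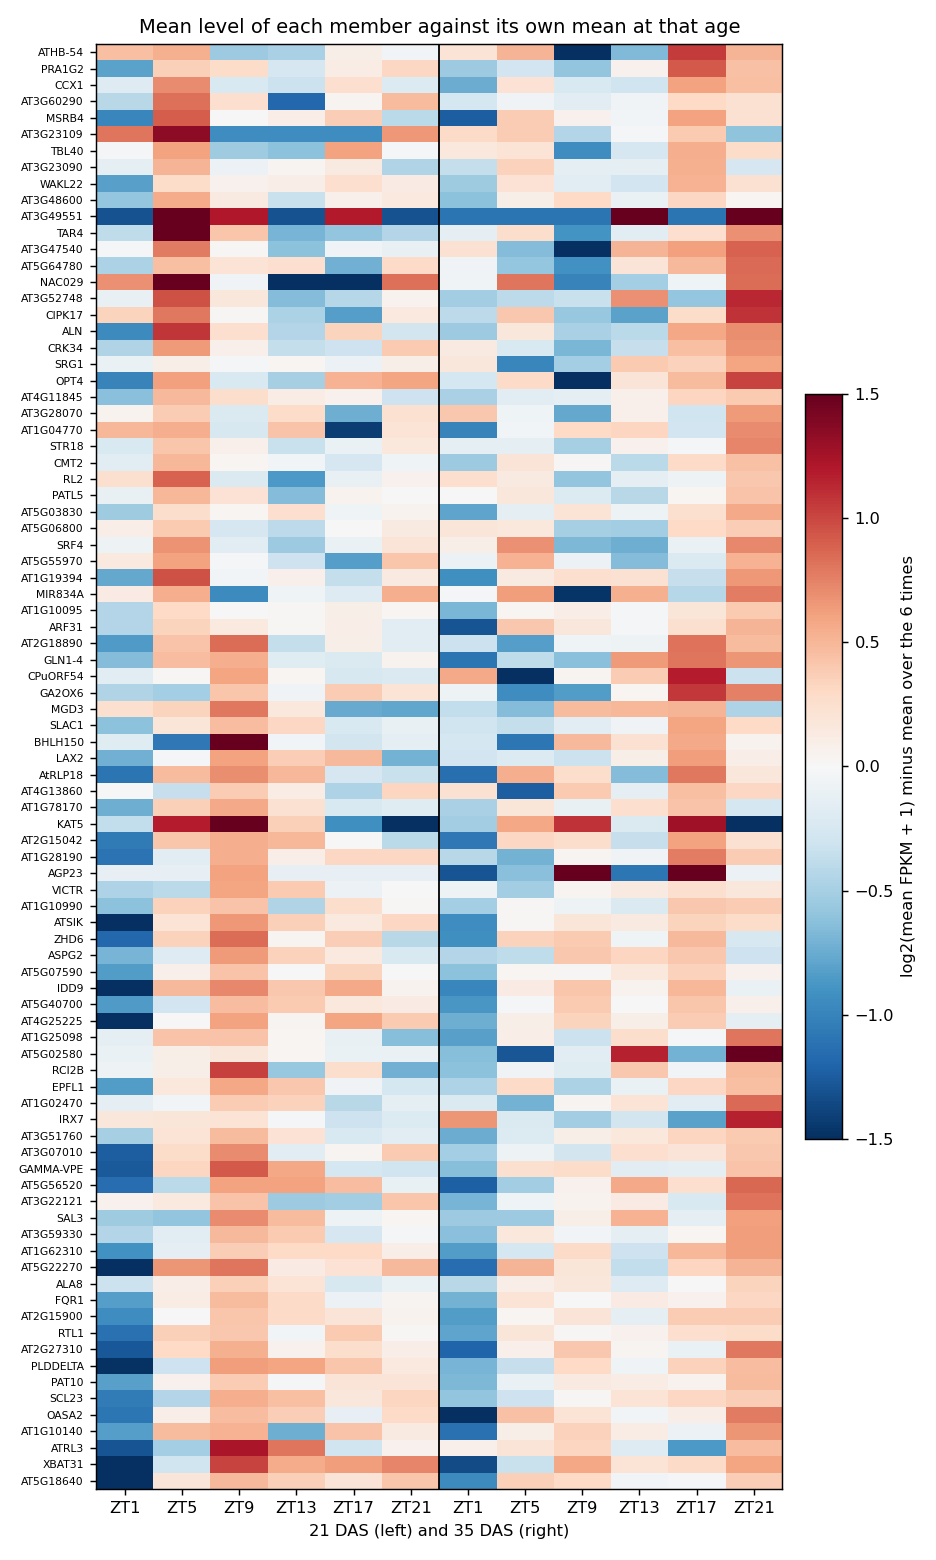
Heat map of the 88 members (rows) over the 6 times at 21 DAS (left) and 35 DAS (right); colour is log2(mean FPKM + 1) minus the mean of the 6 times at that age, capped at 1.5 either way. Rows are ordered by peak time, and the blue ZT1 column at both ages shows the 54 and 50 members that were lowest at that time.

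In part of the members a daytime rise remained at 35 DAS below the night level. Of the 36 members with a ZT5 peak at 21 DAS, 21 still had a local maximum at ZT5 at 35 DAS, higher than ZT1 and ZT9. Of the 52 with a ZT9 peak, 22 had a local maximum at ZT9. These are 58.3% and 42.3%. Among the 5272 genes with a 2-fold daily change, the shares were 81.1% of those with a ZT5 peak at 21 DAS and 66.2% of those with a ZT9 peak. The rule bars an overall peak at these times at 35 DAS, so nothing is read from the lower shares of the members.

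Replicate libraries placed the peaks unevenly. The libraries with the same replicate number were read as 1 series of 6 times per age, which gave 3 series. Since replicate numbers did not pair libraries, these series are joins by number only, and another numbering could change the counts. With this numbering, 10 members had both peaks in their windows in all 3 series. Another 35 had them in 2 series, 37 in 1 series and 6 in none, where the means alone met the rule. At 21 DAS, 34 members had all 3 libraries of ZT5 or of ZT9 above all 6 of ZT17 and ZT21. Of the 15872 genes that passed the limit on the mean, 14.4% did so. At 35 DAS, 23 members had all 3 libraries of ZT17 or of ZT21 above all 6 of ZT5 and ZT9, where the same 15872 genes give 32.0%. Both held in 7 members, and in 0.365% of the 15872. Since the means had to differ this way for a gene to enter, nothing is read from these counts.

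**Figure D2:**
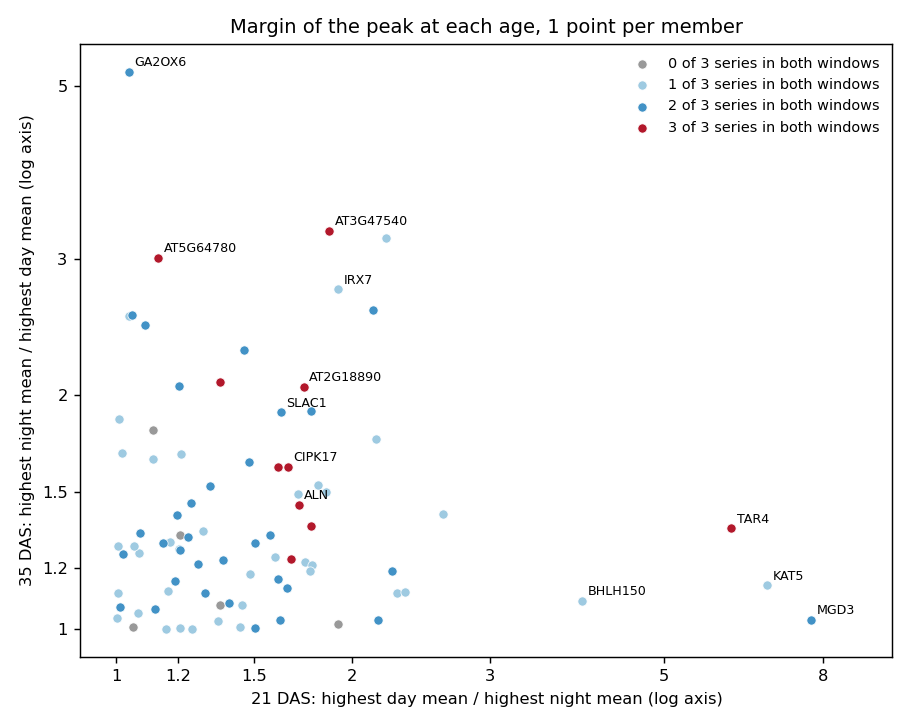
Each point is a member. The horizontal axis is the highest day mean over the highest night mean at 21 DAS and the vertical axis the highest night mean over the highest day mean at 35 DAS, both on log axes, and colour gives the number of replicate series with both peaks in their windows. Most points lie near 1 on at least 1 axis, and both ratios are 1.5 or more in 12 members.

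The 7 members without overlap at either age were AT2G18890, CIPK17, ALN, SLAC1, IRX7, AT3G51760 and AT3G07010. They cover different functions, and 3 of them are signalling or transport genes.

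AT2G18890 (TAIR10, chromosome 2, 8183890 to 8186796) encodes a protein kinase. At 21 DAS it stood at 21.2, 19.6 and 17.7 FPKM at ZT9, and its 6 night libraries lay between 7.56 and 12.4 FPKM. At 35 DAS its ZT17 libraries held 9.21, 6.90 and 7.46 FPKM, against 1.24 to 5.82 FPKM in the 6 libraries of ZT5 and ZT9. The ZT9 libraries at 21 DAS were the 3 highest of all 36. The ZT17 mean was 11.2 ± 2.05 FPKM at 21 DAS and 7.86 ± 1.2 at 35 DAS (SD, n = 3), while the ZT9 mean was 19.5 ± 1.77 and 3.83 ± 1.76.

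CIPK17, a kinase that works with calcium sensors of the CBL family (chromosome 1, 17813976 to 17817283), had ZT5 values of 7.78, 8.91 and 10.7 FPKM at 21 DAS. Its ZT17 libraries then held 1.97, 2.27 and 2.72 FPKM and its ZT21 libraries 4.63, 5.14 and 6.76. The ZT21 libraries of 35 DAS were the 3 highest of all 36, with 38.1, 32.7 and 41.1 FPKM. The ZT5 libraries at 35 DAS were at 20.5, 26.7 and 21.9 FPKM. A ZT5 maximum was thus present at both ages, with a larger night maximum beside it at 35 DAS.

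ALN, allantoinase, opens the ring of allantoin in the breakdown of purines (chromosome 4, 2522034 to 2525280). At 21 DAS its ZT5 libraries held 25.6, 26.9 and 26.6 FPKM, and its night libraries ran from 6.27 to 16.7. In the older leaves it was at 57.8, 72.3 and 49.8 FPKM at ZT17 and at 72.0, 37.1 and 86.2 at ZT21. The ZT5 libraries at 35 DAS, with 46.2, 43.9 and 45.0 FPKM, lay below all 3 of ZT17 but above 1 of ZT21.

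SLAC1, the anion channel of guard cells that acts in stomatal closure (chromosome 1, 4257268 to 4259300), was at 5.16, 6.01 and 5.70 FPKM at ZT9 at 21 DAS and between 2.49 and 4.36 by night. Its 35 DAS libraries held 6.95, 5.55 and 6.18 FPKM at ZT17 and between 2.37 and 4.55 at ZT5 and ZT9. The 2 peaks were alike in height, at 5.62 ± 0.427 and 6.22 ± 0.703 FPKM (SD, n = 3), and its mean over the day was 3.96 FPKM at 21 DAS and 3.94 at 35 DAS. SLAC1 overlaps AT1G12470 on the other strand, and the library kit is not stated to keep strand, so reads of the pair cannot be told apart.

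IRX7, a transferase of xylan synthesis in secondary walls (chromosome 2, 11977944 to 11979837), was low at 21 DAS, with 0.657, 1.53 and 1.05 FPKM at ZT9 and 0.245 to 0.612 by night. At 35 DAS its ZT21 libraries held 27.3, 17.9 and 37.0 FPKM. The libraries of ZT1, just after, were also high, with 19.8, 26.4 and 11.2 FPKM, while those of ZT17 were at 4.45, 11.2 and 3.25 FPKM. Its 35 DAS maximum therefore spans the end of the night and the first hour of light.

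AT3G51760, of unknown function (chromosome 3, 19197337 to 19199506), was at 3.82, 4.65 and 4.32 FPKM at ZT9 at 21 DAS and at 2.18, 2.50 and 2.52 at ZT17 at 35 DAS. Its ZT21 libraries at 35 DAS were at 3.36, 1.46 and 2.91 FPKM. The ZT17 and ZT21 means, 2.40 ± 0.191 and 2.58 ± 0.996 FPKM (SD, n = 3), differ by less than that spread. It overlaps AT3G51750 on the same strand.

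AT3G07010, a probable pectate lyase of the cell wall (chromosome 3, 2212728 to 2216483), was at 65.1, 62.6 and 60.3 FPKM at ZT9 at 21 DAS. Its ZT21 libraries then ran from 37.2 to 58.2. At 35 DAS the level was far lower and flatter, with 6.87, 8.80 and 9.20 FPKM at ZT21 and 4.28 to 6.12 at ZT5 and ZT9. Without the third library of 35 DAS ZT21 it no longer met the rule.

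**Figure D3:**
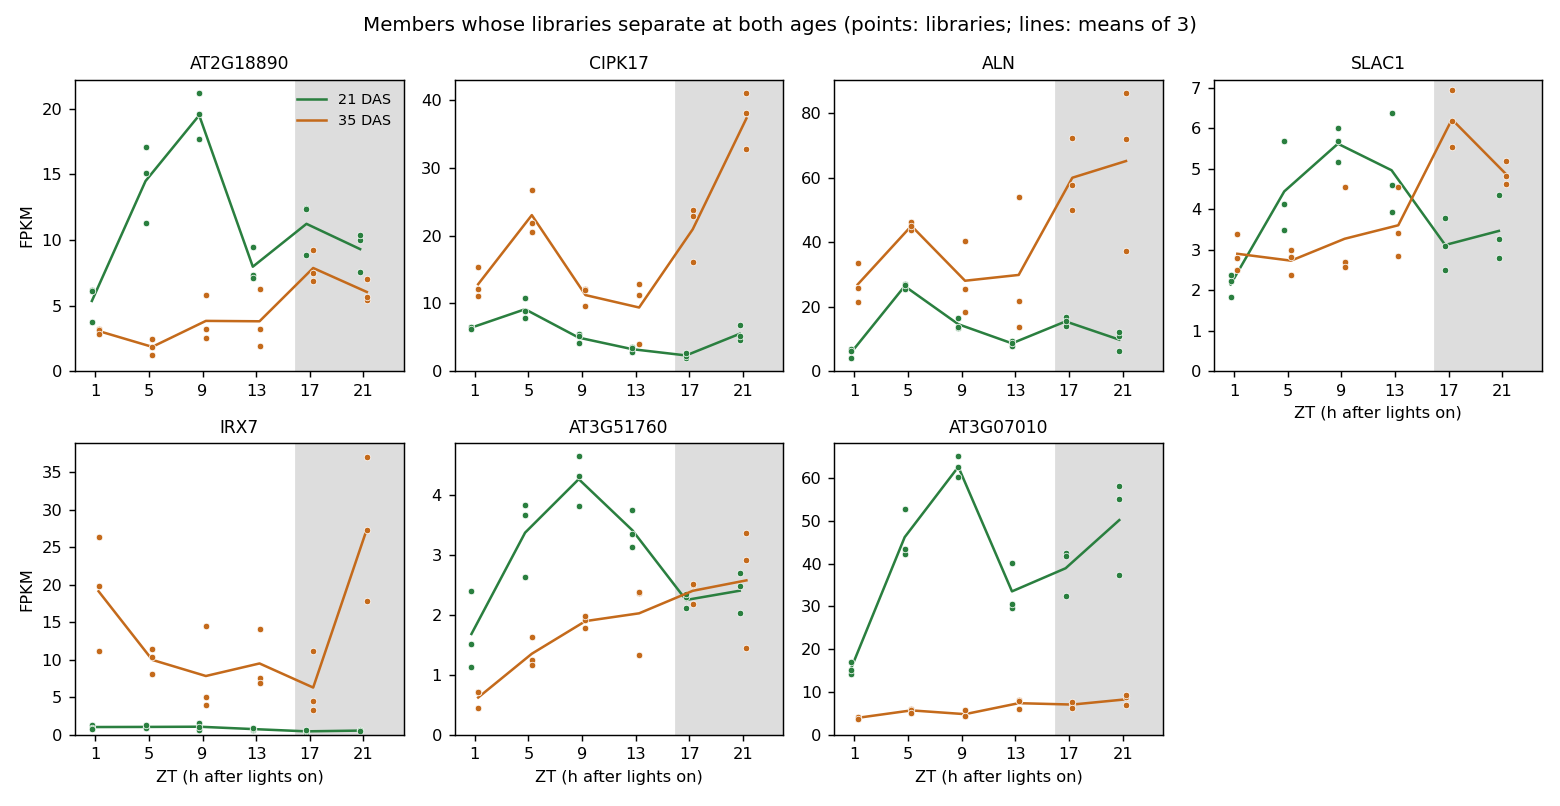
Levels in FPKM of 7 members against ZT, with grey for the dark. At 21 DAS all libraries of ZT5 or of ZT9 lie above all night libraries. At 35 DAS all libraries of ZT17 or of ZT21 lie above all of ZT5 and ZT9, while the other night group can overlap these. Points are libraries (3 per group) and lines are group means, in green for 21 DAS and orange for 35 DAS. CIPK17 and ALN keep a ZT5 maximum at 35 DAS below the night level, and AT3G07010 is at under 10 FPKM throughout 35 DAS.

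Of the 10 members with both peaks in their windows in all 3 replicate series, AT2G18890, CIPK17, ALN and AT3G51760 are described above. The others were TAR4, AT3G47540, AT5G64780, AT4G11845, STR18 and CMT2, which lacked the separation given above at 1 age or both. TAR4, related by sequence to tryptophan aminotransferases (chromosome 1, 12396420 to 12398369), had the largest switch of the 10. The switch adds the mean day-minus-night difference at 21 DAS and the night-minus-day difference at 35 DAS, and was 2.14 on the log2(FPKM + 1) scale for TAR4. Its ZT5 libraries at 21 DAS held 11.2, 6.23 and 19.4 FPKM, and its 6 night libraries 0.788 to 3.10. At 35 DAS its ZT21 libraries held 181, 141 and 254 FPKM, against 156, 145 and 127 at ZT5, so the groups overlap there.

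AT3G47540, of the chitinase family, was close between replicates at ZT5 at 21 DAS, with 17.2, 15.7 and 16.4 FPKM. The older libraries were uneven, with 25.1, 6.40 and 17.1 FPKM at ZT21, 1.91, 8.90 and 29.1 at ZT17 and 0.845 to 25.3 at ZT13. AT5G64780, of unknown function, showed a steadier night rise at 35 DAS. Its ZT21 libraries held 18.7, 11.2 and 17.8 FPKM and its ZT9 libraries 6.31, 2.88 and 2.85. Its 21 DAS profile was flat in the late night, with 13.5, 9.92 and 13.0 FPKM at ZT21 beside 14.6, 11 and 15.6 at ZT5, so the peak of the young leaves overlaps the night.

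CMT2, which methylates cytosines of transposons outside CG sites (chromosome 4, 10414526 to 10421209), was at 3.71, 4.98 and 4.26 FPKM at ZT5 at 21 DAS. At 35 DAS its ZT17 libraries held 3.85, 4.02 and 3.94 FPKM and its ZT21 libraries 4.47, 3.80 and 5.12, against 2.74, 3.76 and 4.37 at ZT5. Its 21 DAS fold, 2.002, is the lowest of any member. STR18, a thiosulfate sulfurtransferase, was at 1.43, 1.79 and 1.77 FPKM at ZT5 at 21 DAS and at 8.84, 2.17 and 8.69 at ZT21 at 35 DAS, where 1 library lay apart from the other 2. AT4G11845, annotated as a kinase-related protein, was at 1.67 to 2.66 FPKM at ZT5 at 21 DAS and at 2.88 to 4.99 at ZT21 at 35 DAS.

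Levels averaged over the 6 times differed between the ages in most members, as they did in most of all genes tested. The rule compared no levels between the ages, but its limit of 2 FPKM on the overall mean used the levels of both. Over the day, 56 of the 88 members were higher at 35 DAS and 16 lower (limma on log2(FPKM + 1), Benjamini-Hochberg adjusted p under 0.05 over 18729 genes). Of all 18729 genes, 64.5% were called higher and 23.2% lower, and of the 5254 tested genes with a 2-fold daily change 59.6% and 27.7%. The members' shares were 63.6% and 18.2%. At least 2-fold higher were 34 members (38.6%), against 14.5% of all genes and 25.9% of those with a 2-fold daily change. At least 2-fold lower were 9 members (10.2%), against 6.95% and 12.8%. The median age effect was 0.74 on the log2 scale in the members, 0.39 in all genes and 0.45 in those with a 2-fold daily change.

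In 28 members the mean reached 2 FPKM at only 1 age, so they met the limit through the age at which they were higher. Of these, 20 reached it only at 35 DAS, with 19 called higher, and 8 only at 21 DAS, all called lower. The other 60 members had 37 called higher, 8 lower and 15 not called, with a median of 0.62. Of the 34 members at least 2-fold higher, 14 were among the 20 and 20 among the 60. Of the 9 at least 2-fold lower, 5 were among the 8 and 4 among the 60. The counts over the 88 are therefore descriptions. So are the age effects given below for AT1G02470, SRG1, LAX2, IRX7, BHLH150, RCI2B, OASA2, AGP23, CCX1 and STR18, which are among the 28, and no p is given for them.

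The scaling of the libraries moved these counts. After rescaling by the median of ratios the median of all genes was 0.04, and 42.6% of genes were higher and 38.3% lower. Of the members 49 were then higher and 26 lower, with a median of 0.45, and all 49 were among the 56. At least 2-fold higher were then 24 members, against 1344 of 18729 genes and 15.8% of those with a 2-fold daily change. At least 2-fold lower were 11 members, against 2089 genes and 17.9%. A single high library could raise both a peak and the mean, so the age effect was also fitted at ZT1 and ZT13 alone, the times outside both windows. There 49 members were higher, 48 of them among the 56, and 13 were lower, 12 of them among the 16. At these times 10279 of all 18729 genes were higher and 3866 lower. The folds of the rule used ZT1 too, as the lowest mean of 54 members at 21 DAS and of 50 at 35 DAS. Fewer cells of a type and less RNA per cell cannot be told apart in whole leaves.

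**Figure D4:**
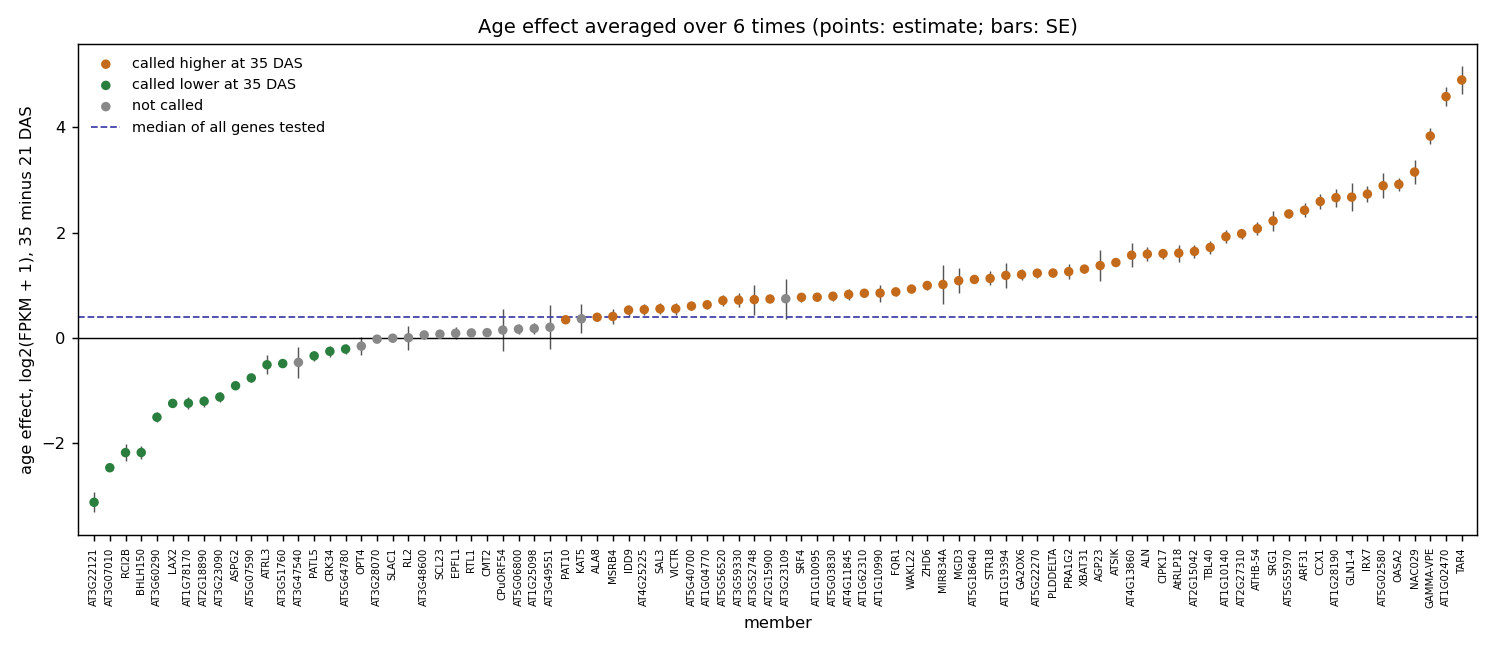
Age effect of each member, 35 minus 21 DAS averaged over 6 times on the log2(FPKM + 1) scale, with its SE, sorted by size. Orange points are called higher, green lower and grey not called; the dashed line is the median of all 18729 genes, at 0.39.

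The members were sorted into role groups after they had been seen, and the counts of each group stand beside 64.5% higher and 23.2% lower among all genes (42.6% and 38.3% after rescaling). Members among the 28 that reached the limit on the mean at only 1 age are included, so the counts of each group are descriptions too. Of 7 genes of nitrogen, sulfur and protein recycling, 6 rose and 1 was not called, with a median age effect of 1.59, and 6 of the 7 peaked at ZT21 at 35 DAS. After rescaling 6 were higher and 1 lower. GAMMA-VPE, a vacuolar protease that processes other proteins in ageing and dying tissue (chromosome 4, 15900270 to 15903268), had the highest level of all members. At 21 DAS its ZT9 libraries held 144, 330 and 191 FPKM and its ZT21 libraries 102, 80.9 and 99.7. At 35 DAS it ran from 622 FPKM in 1 library of ZT13 to 2929 in 1 of ZT21. Its ZT21 libraries at 35 DAS held 2281, 1604 and 2929 FPKM and those of ZT9 2105, 1402 and 2615, so they overlap. Its age effect was 3.84 ± 0.15 (SE, limma, adjusted p = 3.67e-19), and it overlaps AT4G32930 on the other strand.

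GLN1-4, a cytosolic glutamine synthetase that binds ammonium into glutamine (chromosome 5, 5421743 to 5424566), was at 9.86, 13.9 and 12.2 FPKM at ZT9 at 21 DAS and at 111, 111 and 131 at ZT17 at 35 DAS. All 3 of these ZT17 libraries were above all 6 of ZT5 and ZT9, which ran from 20.3 to 76.1 FPKM. The ZT13 libraries of 35 DAS spread from 13.9 to 270 FPKM and those of ZT21 from 23.7 to 173. Its age effect was 2.68 ± 0.26 (SE, adjusted p = 1.75e-10). In the nitrogen list of 12 genes, 2 were higher and 7 lower with a median of −0.57. GLN1-4 was the 1 member of the set in that list, and the other higher gene was its relative GLN1;1, at 2.56 ± 0.20, with peaks at ZT9 and ZT13.

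OASA2, a paralog in the family that makes cysteine, rose by 2.92 ± 0.13, from a mean of 1.43 to 18.3 FPKM. ALN rose by 1.59 ± 0.13, STR18 by 1.13 ± 0.13 and AT1G04770, SULFUR DEFICIENCY-INDUCED 2, which restrains glucosinolate synthesis when sulfur is short, by 0.63 ± 0.09. The effect of AT1G04770 was 0.23 after rescaling, and at ZT1 and ZT13 alone it was −0.17 and not called (limma, adjusted p = 0.313). OPT4, an oligopeptide transporter, was at −0.15 ± 0.16 and not called, and it was lower after rescaling at −0.54. Its 21 DAS profile was near 24 FPKM at ZT5 and ZT21 alike, with means of 24.5 ± 2.19 and 24.1 ± 0.162 (SD, n = 3).

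Of 13 members in transcription and chromatin, 6 rose, 2 fell and 5 were not called (after rescaling 5 higher and 5 lower). The rule left out genes described with WRKY, NAC domain or histone, so the group does not cover those families. NAC029, also called NAP, is a NAC factor that promotes leaf senescence (chromosome 1, 26122139 to 26123421). At 21 DAS it had 33.2, 30.1 and 35.6 FPKM at ZT5, 1.19 to 2.42 at ZT17 and 10.7 to 18.1 at ZT21. At 35 DAS its ZT5 libraries held 124, 151 and 167 FPKM and its ZT21 libraries 185, 87.3 and 182. These means, 147 ± 21.6 and 152 ± 55.7 FPKM (SD, n = 3), differ by less than the spread, and the gene left the set when 1 library at ZT5 or either high library at ZT21 was left out. At 21 DAS the ZT21 mean, 15.3 ± 4 FPKM, differed from that of ZT1, 13.6 ± 10, by less than the spread (SD, n = 3). Its age effect was 3.15 ± 0.23 (SE, adjusted p = 5.56e-13).

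The senescence list of 12 genes had 11 tested, all higher at 35 DAS, with a median of 2.23. Only NAP and SRG1, of those listed, had a day peak at 21 DAS and a night peak at 35 DAS by their means. SRG1, an oxygenase known as a senescence-related gene, was near 0 at 21 DAS, with 0 to 0.295 FPKM in the 18 libraries, so its ZT5 peak of 0.169 FPKM has little weight. At 35 DAS it was between 1.08 and 16.0 FPKM, and its age effect was 2.23 ± 0.19 (SE).

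BHLH150, a bHLH factor without DNA binding of its own that restrains brassinosteroid responses (chromosome 3, 1727306 to 1728296), had a sharp peak at ZT9 at 21 DAS. Its libraries there held 31.1, 34.3 and 37.9 FPKM, against 2.83 to 11.3 in all other 21 DAS libraries. At 35 DAS it was at 2.09, 2.26 and 2.77 FPKM at ZT9 and 3.20, 3.07 and 1.48 at ZT17, so a ZT9 rise persisted and the later peak does not exceed it beyond the spread. At ZT5 it was lowest at both ages, with 0.157, 0.267 and 0 FPKM at 35 DAS. It fell with age by 2.17 ± 0.12 on the log2 scale (SE).

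RL2 and ATRL3, paralogs of the RADIALIS-like MYB family, could share reads in the counting. RL2 was at 64.8, 76.1 and 105 FPKM at ZT5 at 21 DAS and at 53.8, 48.5 and 91.2 at ZT21 at 35 DAS. Its age effect, 0.01 ± 0.23, was not called, while that of ATRL3 was −0.51 ± 0.18 (limma, adjusted p = 0.0123). The effect of ATRL3 was −0.87 after rescaling, and at ZT1 and ZT13 alone it was −0.26 and not called (limma, adjusted p = 0.458). CMT2 was not called over the 6 times either, at 0.10 ± 0.07. It was lower after rescaling, at −0.21, and at ZT1 and ZT13 alone, at −0.27 (limma, adjusted p = 0.0323).

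**Figure D5:**
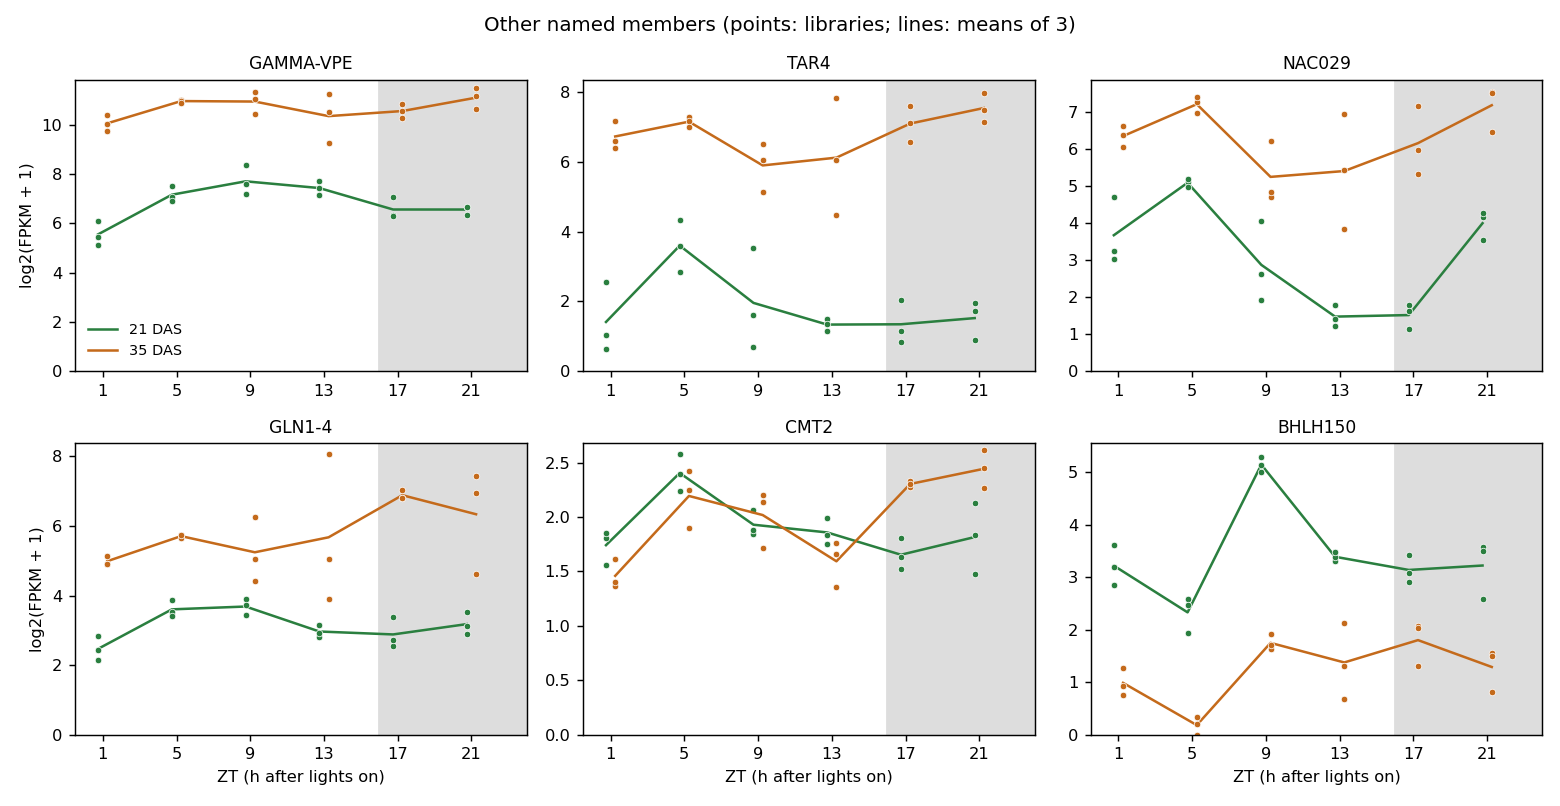
Levels of GAMMA-VPE, TAR4, NAC029, GLN1-4, CMT2 and BHLH150 on the log2(FPKM + 1) scale against ZT, with grey for the dark. Points are libraries (3 per group) and lines are means, in green for 21 DAS and orange for 35 DAS. At 35 DAS the ZT5 and ZT21 libraries of NAC029 overlap, and the ZT13 libraries of 35 DAS spread widely for GLN1-4, TAR4 and NAC029.

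Of 14 enzymes of hormones, lipids and oxidation, 11 rose, 2 fell and 1 was not called (after rescaling 10 and 2). TAR4 had the largest age effect of the set, 4.90 ± 0.26 (SE, adjusted p = 3.44e-16), from a mean of 4.02 to 126 FPKM. AT1G02470, of a lipid transport superfamily, followed with 4.59 ± 0.18. Its mean at 21 DAS was 0.796 FPKM, and the ZT9 peak there rests on 1 library of 3.44 FPKM beside 0.168 and 0.281. FQR1, a quinone reductase that responds to auxin, rose by 0.88 ± 0.08, or 0.46 after rescaling. PLDDELTA, which releases phosphatidic acid from membrane lipids, rose by 1.23 ± 0.07. GA2OX6, which inactivates gibberellins, was nearly level between ZT9 and ZT17 at 21 DAS, with means of 1.92 and 1.85 FPKM. At 35 DAS it had the largest night margin of the 87 members with a day level above 0, with 9.5 ± 2.13 FPKM at ZT17 (SD, n = 3) against 1.82 ± 0.398 at ZT9.

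MGD3, a galactolipid synthase known from phosphate shortage, had a day margin of 7.72 times at 21 DAS, the largest of the 86 members with a night level above 0. At 35 DAS its means at ZT9, ZT13 and ZT17 were 7.23, 7.31 and 7.43 FPKM with SDs from 6.85 to 9.61, so these 3 times differ by less than the spread. KAT5, a thiolase of peroxisomal fatty acid breakdown, kept a ZT9 peak in 2 of 3 libraries at 35 DAS. Its ZT17 mean of 72.8 FPKM came from 1 library of 206 beside 7.12 and 5.73, and without that library KAT5 left the set. It overlaps AT5G48870 on the other strand.

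Among 10 kinases, receptors and signal peptides, 7 rose, 2 fell and 1 was not called (after rescaling 7 and 3). CIPK17 rose by 1.60 ± 0.09 (1.03 at ZT1 and ZT13 alone) and ATSIK by 1.43 ± 0.06, while AT2G18890 fell by 1.201 ± 0.10 on the log2 scale. The receptor-like kinase CRK34 fell by 0.25 ± 0.11 (limma, adjusted p = 0.0324). Its effect was −0.61 after rescaling, and at ZT1 and ZT13 alone it was −0.0029 and not called (limma, adjusted p = 0.990). All 3 ubiquitin ligase genes rose, among them AT5G55970 by 2.36 ± 0.08, the F-box gene AT2G27310 by 1.98 ± 0.10 and XBAT31 by 1.31 ± 0.08. XBAT31 was the second most abundant member. At 21 DAS its ZT1 libraries held 13.5, 11.2 and 10.9 FPKM and its ZT9 libraries 156, 179 and 148. Its night libraries at 21 DAS reached 168 FPKM, and at 35 DAS the means at ZT9 and ZT21 were 299 ± 42.5 and 301 ± 30.1 FPKM (SD, n = 3).

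Of 10 genes of membrane transport and trafficking, 5 rose, 3 fell and 2 were not called, but 3 were higher and 5 lower after rescaling. CCX1, a cation and calcium exchanger, rose by 2.59 ± 0.15, and the auxin influx carrier LAX2 fell by 1.24 ± 0.07 on the log2 scale. RCI2B, a small membrane protein induced by cold, fell by 2.18 ± 0.16. At 35 DAS RCI2B was listed at 0 in 4 of 18 libraries and never exceeded 2.62 FPKM, so its night peak of 1.78 ± 0.872 FPKM at ZT21 lies within the spread of the other times. SLAC1 was not called, at 0.00 ± 0.07, and it was lower after rescaling at −0.34. Of the 7 guard cell markers listed, 5 were lower, OST1 was higher and SLAC1 was not called. By their means 2 of the 7, SLAC1 and MYB60 (ZT5, then ZT21), had a day peak at 21 DAS and a night peak at 35 DAS. The others did not, and KAT1 moved from ZT17 to ZT9. The summed level of the 7 ran from 84.4 to 189 FPKM at 21 DAS and from 54.1 to 122 at 35 DAS, and its part in the SLAC1 profile was not tested.

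Of 5 cell wall genes, 3 rose, 1 fell and 1 was not called (after rescaling 3 and 2). IRX7 rose by 2.73 ± 0.14, TBL40 by 1.72 ± 0.12 and AGP23 by 1.38 ± 0.30 (0.58 at ZT1 and ZT13 alone, not called), while AT3G07010 fell by 2.46 ± 0.06 on the log2 scale (adjusted p = 1.13e-22). All 6 xylem markers tested were lower at 35 DAS, with a median of −1.996 and a summed level of 27.4 to 57.1 FPKM at 21 DAS and 1.80 to 19.6 at 35 DAS. The part of xylem content in the level of IRX7 was not tested. AGP23 was at a mean of 0.109 FPKM at 21 DAS, and it left the set in 11 of 36 cases when 1 library was left out. AT3G47540 was at −0.46 ± 0.30 and not called, and after rescaling it was lower at −0.83.

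The remaining members were 14 proteins of unknown function (10 rose, 3 fell), 6 RNA-related or other proteins (2 rose, 2 fell) and 6 noncoding RNAs or pseudogenes (3 rose, 1 fell). After rescaling these counts were 9 and 3, 2 and 3, and 1 and 2. AT5G22270, the 1 gene of unknown function among the 8 most abundant members, was at 2.84 to 4.13 FPKM at ZT1 and 34.2 to 41.5 at ZT9 at 21 DAS. Its means at ZT5 and ZT21 at 35 DAS were equal within the spread, at 76.0 ± 4.99 and 76.1 ± 9.92 FPKM (SD, n = 3). AT3G22121, a noncoding RNA on the strand opposite AT3G22120, fell by 3.121 ± 0.19 on the log2 scale, the lowest age effect of the 88 members, from a mean of 38.5 to 4.02 FPKM. AT3G49551 was listed at 0 in most libraries and was not called.

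In position, 22 members lie on chromosome 3, 22 on 5, 20 on 1, 13 on 2 and 11 on 4. The neighbours AT2G15040 and AT2G15042, a pseudogene named AtRLP18 and a leucine-rich repeat gene, are the 1 pair next to each other, and both rose, by 1.61 ± 0.16 (0.97 at ZT1 and ZT13 alone) and 1.65 ± 0.13. They peaked at ZT9 and ZT17 alike. They may share reads. In all, 16 members overlap another locus, 11 of them on the other strand.

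Promoters could be read for 81 members, from 250 bases before to 50 after the start. The evening element, on either strand, was in 11 of them, or 13.6% (95% Wilson interval 7.76 to 22.7%), against 5.37% of 30686 coding genes and 9.65% of 5121 among those with a 2-fold daily change. The G-box was in 10, or 12.3% (6.85 to 21.3%), against 7.06% and 10.3%. Both intervals hold the share of the daily changing genes, and that of the evening element lies above the share of all coding genes. The ABRE, which can overlap the G-box, was in 8 (9.88%, against 7.07% of coding genes and 10.3% of the daily changing genes). The CCA1-binding site was in 7 (8.64%, against 7.52% and 8.47%).

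BHLH150 held 4 evening elements, at −139, −127, −102 and −71 from the start, and a CCA1-binding site at −238. XBAT31, which also peaked at ZT9 at 21 DAS, held 1 evening element at −155. SLAC1 and IRX7 held 1 each after the RefSeq start, at 8 and 31. All these positions count from the RefSeq start. For IRX7, BHLH150, CMT2, NAC029, TAR4, CIPK17 and ALN it lies upstream of the TAIR10 limit given above. The match of IRX7 is upstream of that TAIR10 limit. CMT2 had G-boxes at −40 and −31 with an ABRE across the second, and NAC029 had 1 G-box at −242. The windows of TAR4, CIPK17 and ALN held none of the 4. The morning element (CCACAC), I-box core (GATAAG), W-box (TTGACC or TTGACT), site II (TGGGCC), telo-box (AAACCCTA) and heat shock element (GAANNTTC) were in 9.88%, 13.6%, 29.6%, 8.64%, 2.47% and 8.64% of members. In coding genes these shares were 7.75%, 14.9%, 31.9%, 14.2%, 6.25% and 11.3%. In the genes with a 2-fold daily change they were 9.82%, 16.0%, 34.2%, 12.9%, 4.18% and 12.9%. All of these are matches of letters, not measured sites.

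Just inside the limit of 2 on the 21 DAS fold were CMT2 (2.002), AT3G22121 (2.01) and ALA8 (2.08), and just outside AT1G70620 (1.98), AT3G29680 (1.92) and AT4G14746 (1.88). For the 35 DAS fold, VICTR (2.01), RL2 (2.02) and FQR1 (2.03) were inside, and AT3G03180 (1.98), EFL4 (1.97) and AT5G35735 (1.97) outside. For the overall mean, AGP23 (2.003 FPKM), AT1G19394 (2.03) and PATL5 (2.05) were inside, and AT4G22560 (1.99), RING1A (1.99) and AT1G80060 (1.92) outside.

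Across the series, libraries summed to between 829518 and 952310 FPKM and held 16113 to 17131 genes at 1 FPKM or more. All 6 mesophyll markers fell with age, from 23110 to 51925 FPKM summed at 21 DAS to 6882 to 26690 at 35 DAS, and the summed flower markers stayed at or under 4.11 FPKM. The epidermis and trichome list had 3 of 4 tested genes lower and the phloem list 5 of 7, and neither held a member. None of the 22 clock genes listed had a day peak at 21 DAS and a night peak at 35 DAS. The second library of 35 DAS ZT13 was least like its group, with a mean correlation of 0.935. It and 3 others hold reads of AT2G01021, which is at 0 elsewhere. Without these 4 libraries the rule gave 80 genes, 58 of them members. The third library of 35 DAS ZT21 was the highest of its group in 40 members and the second in 14, and without the third 72 of the 88 remained.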

How the data were processed

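The authors deposited 1 table of FPKM values, with a row per transcript. The submitters' processing notes name TAIR10, STAR 2.3.0e, HTSeq and edgeR 3.12.1; the step to FPKM is not given in the sources used here. Columns marked Y and O were read as 21 and 35 DAS, an assumption, since only their ZT and replicate numbers match the titles; 36 unnamed columns hold no values. FPKM of 41342 transcripts were summed to 33279 loci. Sample titles number batches 1 to 3, the series text says biological replicates, and p-values measure only the spread between these libraries.

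The age effect (35 minus 21 DAS, averaged over 6 times) was fitted with limma 3.58.1 in R 4.3.3 on log2(FPKM + 1), over the 18729 genes that reached 1 FPKM in 3 or more libraries, using eBayes with a mean-variance trend. The addend understates folds of low genes. All 12 groups share 1 estimate of spread. The fit was tested on simulated data without a daily rhythm or an age shift common to most genes, so the test does not cover these.

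Named genes are the 10 members with all 3 series in both windows, the 8 highest means, the 4 highest and 4 lowest called age effects, members of fixed lists, and threshold neighbours. Others were named after their values were seen. Members and lists were chosen with earlier results of these data known, and role groups after the members were seen. Promoters come from RefSeq's TAIR10.1, where 32814 of 32815 loci overlapped the same identifier.

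Depth is not stated, and low FPKM values were searched for steps of 1 fragment. With upper limits of 0.15, 0.3, 0.5 and 1.5 FPKM, 62.3%, 66.1%, 64.7% and 58.2% of values came within 0.1 of whole steps (20.0% if even). The median step gave 22.4, 16.3, 14.4 and 11.1 fragments per FPKM: the answer depended on the limit, so no counts were recovered and no depth is given. Wilson intervals cover counting error only.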

Additional observations from a re-analysis of the deposited data

How the results depend on the processing

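Membership moved with every choice tried. The rule gave 224 genes with a fold of 1.5 or more, 35 with 3 or more, 52 with an overall mean of 5 or more and 338 when summed windows were compared, of which 88, 35, 52 and 67 were among the 88. Group medians gave 102 (59 shared) and rescaling 74 (41 shared). Leaving out replicate 1, 2 or 3 in all groups gave between 97 and 144 genes, with 57, 61 and 51 shared. Leaving out single libraries gave 79 to 113 genes, with 72 to 87 shared, and 19 members were kept each time. Rescaling gave 26 members called lower, and over all genes 7974 higher and 7176 lower, since it moves the median of all genes. Without replicate 1, 2 or 3, between 54 and 56 members were higher and 12 to 16 lower. Over all genes, 11546 of 18423, 11584 of 18462 and 11453 of 18425 were then higher, and 4077, 4082 and 3983 lower. Without 35 DAS ZT13 replicate 2 or without the 4 libraries with AT2G01021 reads (both chosen after seeing the data), 56 were higher and 15 lower. Over all genes, 12047 of 18712 and 11919 of 18641 were then higher, and 4384 and 4319 lower.

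Of 309 age effects of named members under the alternatives, 294 kept direction and side of the threshold. SLAC1 ranged from −0.072 to 0.040 without 1 replicate number, turning to 0.040 without replicate 2 and 0.022 without replicate 3. RL2 turned to −0.0015 with an addend of 0.1, −0.40 after rescaling, −0.11 without replicate 1 and −0.25 without replicate 3, and was called higher at 0.38 without replicate 2. CMT2 turned to −0.21 after rescaling and −0.27 at ZT1 and ZT13. The cause was not tested. AT5G64780 lost its call in 4 settings. Replicate numbers did not pair libraries: the mean correlation of deviations was 0.00856 within a number (−0.473 to 0.582) and −0.00445 between. With the replicate block 57 members were higher and 16 lower, against 12091 and 4346 of 18729 genes. With 3 libraries a group, peak times that differ by less than the spread cannot be placed.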
